A study of Homo sapiens with 6 samples.

Results

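The replication-dependent histone genes encode the linker histone H1 and the core histones H2A, H2B, H3 and H4 that package newly made DNA. Members were taken by symbol, as all genes named HIST1H, HIST2H, HIST3H or HIST4H and the current symbols of those genes. RefSeq (GRCh38.p14) lists 71 such protein-coding genes. Of these, 62 were read by at least 1 probe set that names that gene alone, 105 probe sets in all, out of 17534 genes measured. The remaining 9 genes were read only by probe sets that name several histones and are described apart. Expression was measured on 6 Affymetrix PrimeView arrays from total RNA of MM.1R, a human multiple myeloma line resistant to glucocorticoids. On 3 arrays the cells had been infected with the control short hairpin shCtrl. On the other 3 they had received Epirubicin Hydrochloride, an anthracycline that poisons topoisomerase II, given to inhibit their growth. Neither the dose nor the duration is given in the sources used here. The vector is named for the control arrays only, so the effects of drug and of vector cannot be told apart. Whether the 3 arrays within a group had their own cultures is not stated, so p-values here cover only the variation among these 6 samples, part or all of which may be technical.

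Most replication-dependent histone messages end in a conserved stem-loop bound by SLBP instead of a poly(A) tail, and they accumulate during S phase when the NPAT and CASP8AP2 proteins drive their transcription at histone locus bodies. Some of these genes also yield polyadenylated transcripts, a form known from differentiated and non-dividing cells, often through a poly(A) signal downstream of the stem-loop. The 3′ IVT labelling named for these arrays usually primes from the poly(A) tail, although the primer itself is not given in the sources used here. The values are thus read as histone transcripts caught by this labelling, and the arrays do not show which 3′ end a transcript carried.

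Values are log2 expression values, and a difference is epirubicin minus shCtrl on that scale. A gene was called higher or lower at an adjusted p under 0.05 in limma, a linear model with a pooled spread, and a fold of at least 1.3 (0.38 on the log2 scale). Each gene was read by its brightest probe set. By this rule 1 of the 62 histone genes was higher, H2BC12, and 1 was lower, H4C2, or 3.23% of them in either direction. Of all 17534 genes, 4.36% were called higher, 2.14% lower and 6.51% in either direction. The median difference over the 62 was -0.03, beside 0.02 over all genes, and their range ran from -0.41 to 0.85. In bulk RNA, fewer cells of a kind and less RNA per cell cannot be told apart, which applies to every difference here.

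The promoters of the 5 genes with a call in the gene or probe set fit are shown because these genes all lie in histone clusters on chromosome 6 and differ in direction. Each line gives the 250 bases before the annotated start, 5′ to 3′ on the gene's strand, from RefSeq (GRCh38.p14). Capitals mark the octamer ATTTGCAT (an element of many H2B promoters), CCAAT (read by NF-Y) and TATAAA, each searched on both strands, with neighbouring or overlapping matches run together.

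H2BC12, chr6:27146859-27147108, minus strand: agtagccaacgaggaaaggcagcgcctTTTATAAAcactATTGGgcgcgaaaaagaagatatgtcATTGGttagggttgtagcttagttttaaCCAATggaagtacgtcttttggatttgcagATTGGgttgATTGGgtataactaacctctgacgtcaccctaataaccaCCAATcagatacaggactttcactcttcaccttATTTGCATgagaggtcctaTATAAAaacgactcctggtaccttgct
H2BC5, chr6:26157871-26158120, plus strand: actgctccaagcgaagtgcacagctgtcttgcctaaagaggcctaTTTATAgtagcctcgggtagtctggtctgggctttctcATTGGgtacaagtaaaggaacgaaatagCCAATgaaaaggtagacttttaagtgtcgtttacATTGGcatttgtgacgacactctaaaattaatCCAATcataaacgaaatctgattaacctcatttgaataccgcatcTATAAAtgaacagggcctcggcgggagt
H2BC9, chr6:26251364-26251613, plus strand: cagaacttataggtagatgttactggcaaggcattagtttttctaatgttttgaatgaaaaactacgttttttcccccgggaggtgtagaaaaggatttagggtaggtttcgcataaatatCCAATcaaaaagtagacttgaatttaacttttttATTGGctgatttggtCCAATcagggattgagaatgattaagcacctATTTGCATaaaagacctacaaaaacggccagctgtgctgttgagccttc
H4C2, chr6:26027284-26027533, minus strand: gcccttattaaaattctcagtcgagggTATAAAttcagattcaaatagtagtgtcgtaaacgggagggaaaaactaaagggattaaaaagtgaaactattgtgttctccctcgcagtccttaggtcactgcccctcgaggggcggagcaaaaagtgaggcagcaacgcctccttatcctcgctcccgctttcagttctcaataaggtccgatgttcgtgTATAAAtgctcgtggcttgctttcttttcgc
H2AC11, chr6:27132793-27133042, plus strand: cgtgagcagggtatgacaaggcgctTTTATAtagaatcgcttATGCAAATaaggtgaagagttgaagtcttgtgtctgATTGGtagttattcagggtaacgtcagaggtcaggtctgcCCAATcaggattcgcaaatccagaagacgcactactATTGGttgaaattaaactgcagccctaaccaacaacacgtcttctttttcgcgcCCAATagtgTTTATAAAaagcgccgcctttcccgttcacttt

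H2BC12 holds 1 octamer, 6 CCAAT and 3 TATAAA matches in these bases, and H2BC9 holds 1 octamer, 3 CCAAT and 0 TATAAA. H2BC5 holds 0 octamers, 4 CCAAT and 2 TATAAA, and H4C2 holds 2 TATAAA and neither of the others. H2AC11 holds 1 octamer, 4 CCAAT and 3 TATAAA matches. Promoters of 300 bases, with 50 after the start, were matched for 57 of the 62 members. The octamer stood in 26 of the 57 (45.6%), beside 1.8% of all 27305 promoters. By class it stood in 14 of 18 H2B, 11 of 14 H2A, 1 of 9 H3, 0 of 6 H1 and 0 of 10 H4 promoters. These counts are not independent: paired H2A and H2B genes have starts 194 to 248 bases apart. The same match can thus count for both genes of a pair. CCAAT stood in 50 of 57 (87.7%; 35.7% of all promoters), with 3 of 10 among H4 genes and every matched gene of the other classes. TATAAA stood in 37 of 57 (64.9%; 12% of all promoters). The median difference was -0.03 for H2B genes with the octamer and 0.09 for those without it. A match is a description of the letters, and not a site or a cause.

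Among the H2B genes, H2BC12 (HIST1H2BK) encodes an H2B protein and lies in a small group of histone genes on chromosome 6. Its brightest probe set read 6.57, 6.72 and 6.60 on the shCtrl arrays and 7.44, 7.55 and 7.47 on the epirubicin arrays. Every epirubicin array lay above every shCtrl array. The mean rose from 6.63 ± 0.08 to 7.49 ± 0.05 (SD, n = 3), a difference of 0.85 (SE 0.05, 95% CI 0.73 to 0.98) or 1.81-fold (adjusted p = 9.99e-05 in limma). The other probe set of the gene read 3.33, 2.82 and 3.26 on shCtrl arrays and 2.94, 3.23 and 3.13 on epirubicin arrays. These groups overlapped, with a difference of -0.03 (95% CI -0.37 to 0.30). All 6 values of this second probe set lay below the lower quartile of each array (3.84 to 3.90). As the mean of both probe sets, H2BC12 differed by 0.41 and was still called higher.

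H2BC5 (HIST1H2BD) gave a call that depended on the probe set. Its brightest one read 5.13, 5.03 and 4.81 on shCtrl arrays and 5.02, 5.01 and 5.30 on epirubicin arrays. The groups overlapped, and the difference of 0.12 (95% CI -0.14 to 0.38) did not pass the test. Another probe set, whose platform annotation names a different curated transcript, read 4.35, 4.57 and 4.09 and then 5.01, 5.05 and 5.22. There all epirubicin arrays were above all shCtrl arrays. This probe set rose from 4.34 ± 0.24 to 5.09 ± 0.11 (SD, n = 3), by 0.75 (SE 0.12, 95% CI 0.47 to 1.04) or 1.69-fold (adjusted p = 0.00494 in limma over all probe sets). The third, annotated to the same transcript as the brightest, read 4.17, 3.95 and 3.76 and then 3.96, 4.05 and 4.05, a difference of 0.06. RefSeq lists 2 or more curated transcripts for 6 of the 62 members, H2BC12, H2BC18, H2BC4, H2BC5, H3C4 and H3C6. Both genes with a probe set called higher are among these 6, an overlap looked at after the values were seen. The preset genes H2BC4 and H2BC21 differed by -0.04 and -0.02, with overlapping groups (2.60, 2.75 and 2.71 against 2.75, 2.54 and 2.66 for H2BC4, and 4.76, 4.65 and 4.54 against 4.65, 4.55 and 4.71 for H2BC21, where 2 of the 3 probe sets hold identical values).

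H2BC9 (HIST1H2BH) went the other way on all 3 of its probe sets. One read 4.48, 4.46 and 4.55 on shCtrl arrays and 3.83, 3.87 and 3.57 on epirubicin arrays. It fell by 0.74 on the log2 scale (SE 0.08, 1.67-fold, adjusted p = 0.00123 in limma over probe sets). A further one read 4.35, 4.33 and 4.43 and then 3.80, 3.77 and 3.68. It fell by 0.62 (SE 0.05, 1.53-fold, adjusted p = 0.000338 in limma over probe sets). The probe set chosen by the rule read 4.41, 4.33 and 4.40 and then 4.14, 4.03 and 4.09, a difference of -0.29 (adjusted p = 0.00315 in limma) that missed the fold threshold. In each of the 3 probe sets all epirubicin arrays lay below all shCtrl arrays. The mean over the 3 differed by -0.55 and was called lower. Of 18 H2B genes, 1 was called higher and 0 lower by the brightest probe set, 9 were above 0 and 9 below, and the median was 0.02, or -0.02 after quantile normalization and -0.01 after median centring. H2BC15, the only other H2B gene above the median of all values (5.54), read 5.62, 5.61 and 5.67 and then 5.44, 5.48 and 5.61, a difference of -0.12 (adjusted p = 0.127 in limma). H2BC17 read 2.72, 2.65 and 2.42 and then 2.87, 2.74 and 3.06, groups apart by 0.30 (adjusted p = 0.081 in limma).

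**Figure D1:**
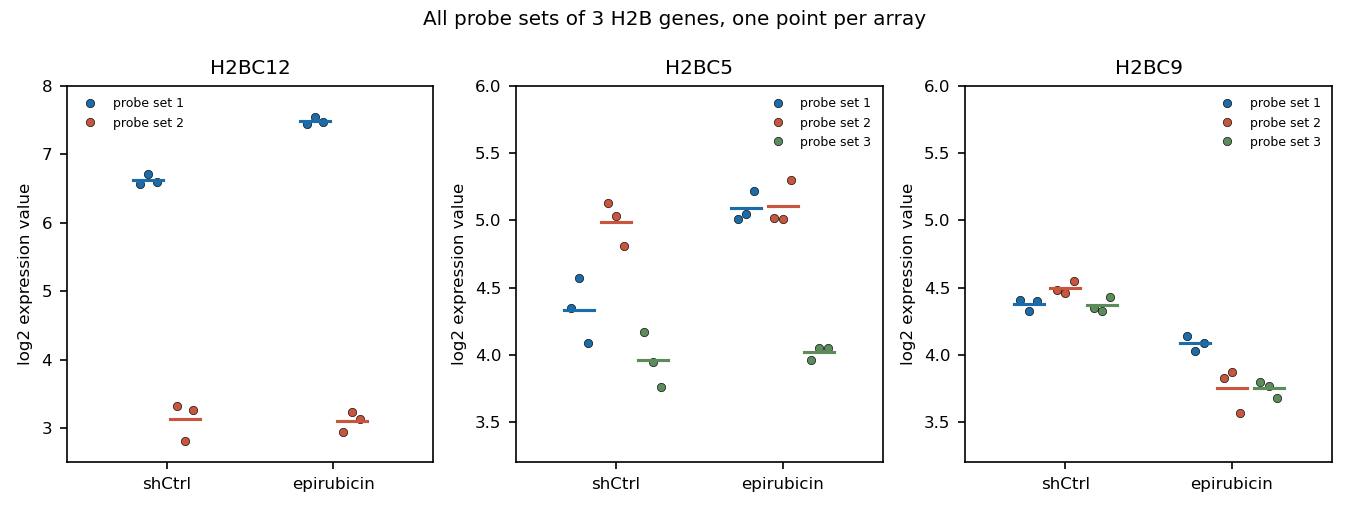
Log2 expression value of each probe set of H2BC12, H2BC5 and H2BC9 on the 3 shCtrl and 3 epirubicin arrays, one point per array, with bars at the group means; the vertical scale of the H2BC12 panel differs. Probe set 1 of H2BC12 (6.63 to 7.49) and of H2BC5 (4.34 to 5.09) moved up, the others of those genes overlapped between groups, and all 3 of H2BC9 lay lower with epirubicin.

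Among the H4 genes, H4C2 (HIST1H4B) read 4.82, 4.82 and 4.68 on shCtrl arrays and 4.44, 4.37 and 4.30 on epirubicin arrays, so that the groups did not overlap. It fell from 4.77 ± 0.08 to 4.37 ± 0.07 (SD, n = 3), by 0.41 (SE 0.06, 95% CI -0.54 to -0.27) or 1.32-fold (adjusted p = 0.00229 in limma). The call was close to the fold threshold: without the third epirubicin array the difference was -0.37 and H4C2 was not called, nor was it when tested against a fold of 1.3. H4C3 (HIST1H4C) was close to the top of the scale at 13.04, 13.02 and 13.03 on shCtrl arrays and 12.73, 12.73 and 12.75 on epirubicin arrays. The highest value in the table was 13.73. All epirubicin arrays were lower, by -0.30 (SE 0.03, 95% CI -0.37 to -0.23, adjusted p = 0.000616 in limma), which is 1.23-fold and short of the threshold. Its other probe set gave -0.28, with 13.01, 13.00 and 12.99 on shCtrl arrays and 12.70, 12.72 and 12.73 on epirubicin arrays. H4C1 and H4C8 had an adjusted p under 0.05 in limma below the fold threshold, at -0.25 and -0.23. H4C12 read 6.73, 6.71 and 6.78 and then 6.89, 6.67 and 6.86, a difference of 0.07 with overlapping groups. Of 12 H4 genes, 0 were called higher and 1 lower, 9 lay below 0, and the median was -0.11.

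Among the H1 genes, H1-2 (HIST1H1C), a linker histone that binds DNA between nucleosomes, read 7.07, 7.01 and 7.06 on shCtrl arrays and 6.59, 6.81 and 6.75 on epirubicin arrays. The groups did not overlap and the first epirubicin array was the lowest. The mean was 7.05 ± 0.04 and then 6.71 ± 0.12 (SD, n = 3), a difference of -0.33 (SE 0.06, 95% CI -0.48 to -0.18, adjusted p = 0.00799 in limma) or 1.26-fold, short of the fold threshold. Without the second epirubicin array the difference was -0.38 and H1-2 was called lower. The other H1 genes gave -0.17 for H1-3 and H1-5, -0.12 for H1-4, -0.01 for the testis form H1-6 and -0.0021 for H1-1. All 6 lay below 0, with a median of -0.15, but only H1-2 had groups that did not overlap, and 0 of the 6 were called. The median was -0.06 without the second shCtrl array and -0.04 without the third epirubicin array.

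Among the H2A genes, H2AC6 (HIST1H2AC) read 4.54, 5.07 and 4.98 on shCtrl arrays and 5.13, 5.29 and 5.38 on epirubicin arrays. All epirubicin arrays were above all shCtrl arrays, but the first shCtrl array stood low and the control spread was wide (4.86 ± 0.29, then 5.27 ± 0.13, SD, n = 3). The difference of 0.40 (SE 0.14, 95% CI 0.06 to 0.75) missed the test (adjusted p = 0.0824 in limma). With a variance model that follows expression level and resists outliers it was called higher (adjusted p = 0.00886 in limma). H2AC20 read 6.16, 6.21 and 6.13 and then 6.00, 6.05 and 5.80, lower on every epirubicin array by -0.22 (adjusted p = 0.0548 in limma). H2AC7 read 2.48, 2.49 and 2.35 and then 2.59, 2.75 and 2.59, groups apart by 0.20 (adjusted p = 0.0524 in limma). One of the H2AC11 probe sets read 2.62, 2.74 and 2.74 and then 2.17, 2.19 and 2.19. It fell by 0.52 (SE 0.05, 1.43-fold, adjusted p = 0.000472 in limma over probe sets) at values below the lower quartile of every array. The other H2AC11 probe set read 3.50, 3.76 and 3.52 and then 3.72, 3.45 and 3.55, a difference of -0.02 with overlapping groups. Of 15 H2A genes 0 were called by the brightest probe set (median -0.03). Of 11 H3 genes 0 were called (median -0.03). H3C4 and H3C8, each at -0.19, had an adjusted p under 0.05 in limma (0.0319 and 0.049) below the fold threshold. The same H3C8 probe set missed in the fit over all probe sets (adjusted p = 0.0583 in limma). Its other probe sets gave 0.02, -0.02 and -0.08, and the mean over all 4 was -0.07.

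**Figure D2:**
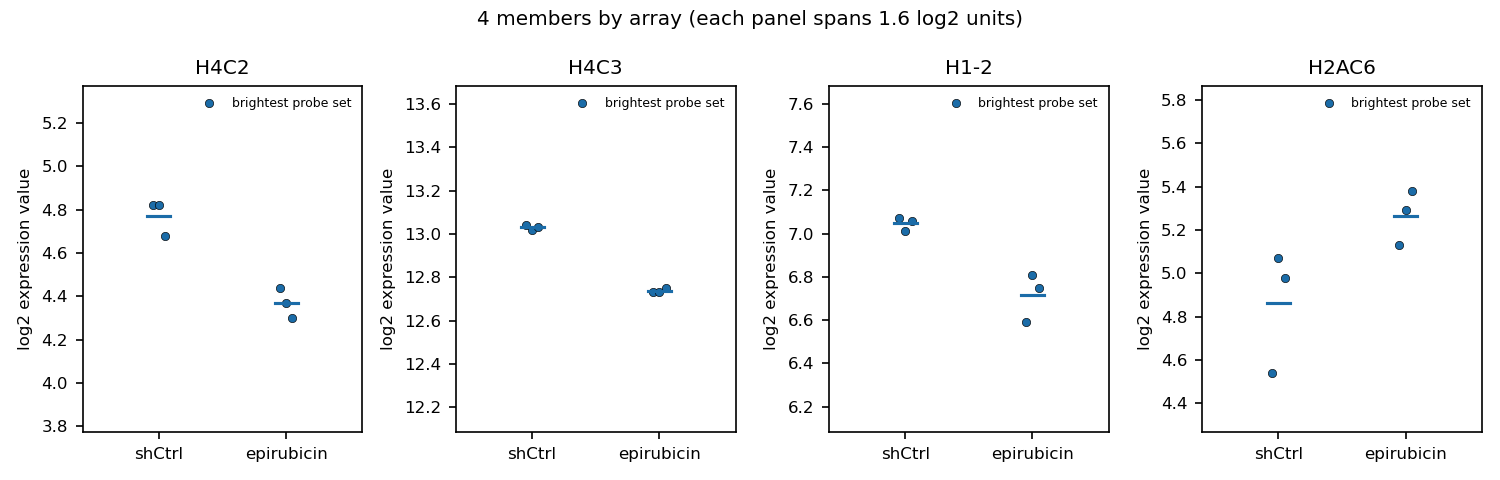
Log2 expression value of H4C2, H4C3, H1-2 and H2AC6 on each array, read by the brightest probe set, with bars at the group means; each panel spans 1.6 log2 units. Epirubicin arrays lie below shCtrl arrays for H4C2 (-0.41), H4C3 (-0.30) and H1-2 (-0.33) and above them for H2AC6 (0.40), where 1 shCtrl array stands low at 4.54.

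**Figure D3:**
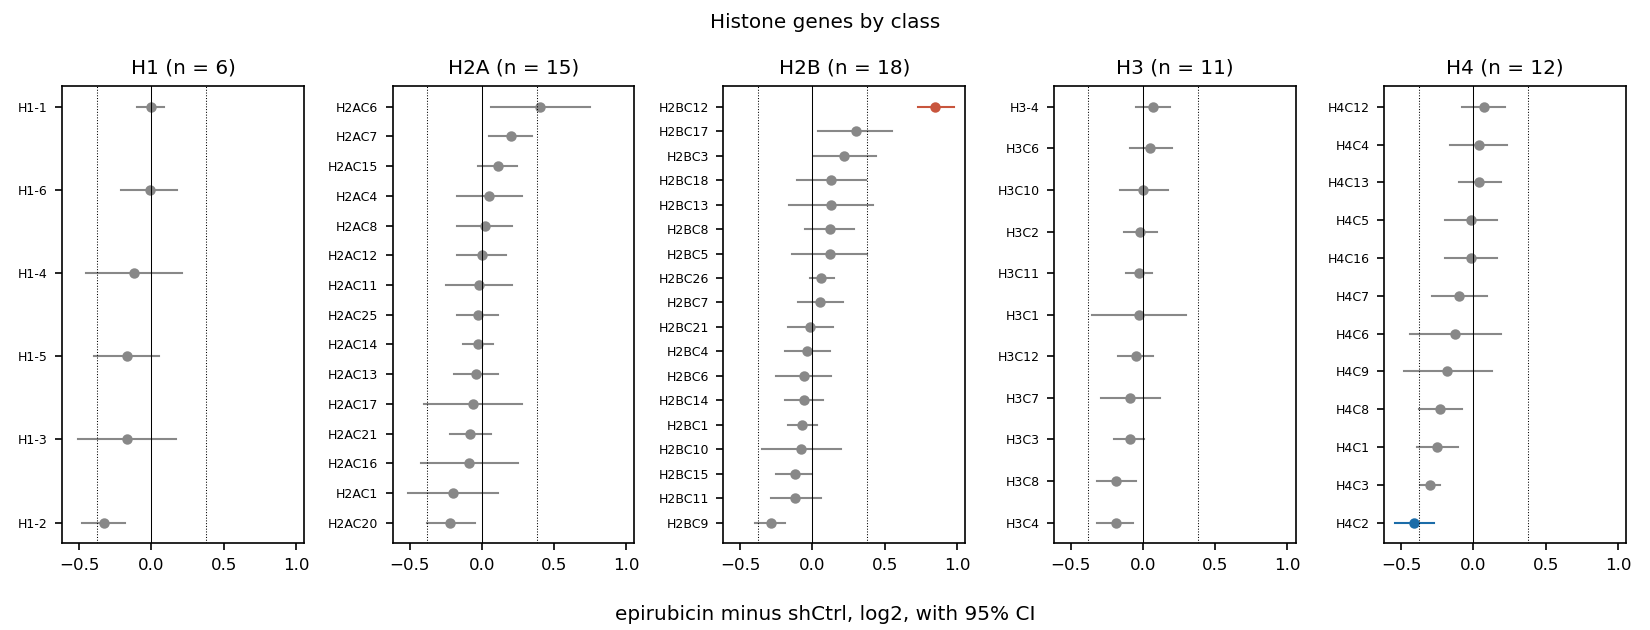
Difference between epirubicin and shCtrl on the log2 scale for each of the 62 genes by histone class, with limma's 95% CI; red marks a gene called higher, blue one called lower and grey one not called, and dotted lines stand at 1.3-fold. H2BC12 (0.85) is the only red gene and H4C2 (-0.41) the only blue one.

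Of the 62 differences, 41 lay below 0, beside 7761 of 17534 over all genes. With no fold threshold and an adjusted p under 0.05 in limma, 8 of the 62 genes were lower (12.9%) and 1 higher (1.61%), beside 13.5% lower and 15.6% higher of all genes. The share lower was thus close to that of all genes, but most members were dim. The share at any fold among dim genes alone was not computed. The 8 were H1-2, H2BC9, H3C4, H3C8, H4C1, H4C2, H4C3 and H4C8. Groups did not overlap for 14 genes, 4 higher (H2BC12, H2AC6, H2BC17 and H2AC7) and 10 lower. That is 22.6% of the members. Of all genes, 43.8% had groups that did not overlap, 23.8% higher and 20.1% lower with epirubicin. Of the 62, 5 were counted here as germline or tissue-restricted (H1-6, H2AC1, H2BC1, H3-4 and H4C7), and 0 of these were called. That set was listed by hand and not taken from the annotation used here.

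Most histone genes were dim on these arrays. Only 6 of 62 (9.68%) exceeded 5.54, the median of all values, in either group, beside 57.5% of all genes: H1-2, H2AC20, H2BC12, H2BC15, H4C3 and H4C12. Of these 6, 1 was called higher and 0 lower. Among all genes at or under that median in both groups, 1.76% were called higher and 0.537% lower (2.3% either way), and among genes above it 6.29% and 3.33% (9.62% either way). Detection calls were not used here, so the dim values have no measured floor. The median level of the 62 genes was 3.93, 3.93 and 3.87 on the shCtrl arrays and 3.94, 3.97 and 3.94 on the epirubicin arrays. For H1 it was 4.35, 4.53 and 4.35 and then 4.33, 4.23 and 4.04.

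Probe sets of near-identical genes can read each other's transcripts. Of the 105, 49 (46.7%) carry the suffix s or x, which marks probes shared with other transcripts or open to cross-hybridization, beside 29% of all probe sets, and 14 genes had no other kind. Over the 105 probe sets, 2 were called higher (H2BC12 and H2BC5) and 4 lower (H2BC9 in 2 probe sets, H2AC11 and H4C2), beside 3.65% higher, 2.62% lower and 6.27% either way of all 47481 probe sets. With no fold threshold 2 were higher and 11 lower, or 12.4% in all, where all probe sets gave 11.8% higher, 13.3% lower and 25.1% either way. Groups did not overlap for 5 higher and 17 lower probe sets, or 21% in all, where all probe sets gave 20% higher, 21.1% lower and 41.2% either way. Of the 6 called, 1 has an s or x suffix, a probe set of H2BC9. By the brightest probe set, 25 of the 62 genes were read by one with an s or x suffix. These included 5 of the 8 genes lower at any fold and 3 of the 4 whose groups lay apart upward. H1-2, H4C3 and H2AC6 had only probe sets with these suffixes. In 29 genes with 2 or more probe sets, 22 had all differences on the same side of 0. The differences within a gene spanned 1.3-fold or more in 4 genes, H2BC12 (0.89), H2BC5 (0.70), H2AC11 (0.50) and H2BC9 (0.45), and their median span was 0.07.

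The 9 probe sets that name several histones gave 0 calls in limma, and 0 were past an adjusted p of 0.05 whatever the fold. The brightest of them, for H2AC18 and H2AC19, read 7.78, 7.80 and 7.70 on shCtrl arrays and 7.84, 7.82 and 7.81 on epirubicin arrays. Its epirubicin values all lay above the shCtrl values, by 0.06 (95% CI -0.03 to 0.16). A second probe set for the same pair gave 0.07 with overlapping groups. The probe sets for H4C14 and H4C15 gave 0.06 and -0.10, those for H3C14 and H3C15 gave -0.03 and 0.05, and the one for H3C14, H3C15, H3-7 and H3C13 gave 0.07. The probe set for H4C12 and H4C11 gave -0.02 and that for H2AC7 and H3C4 gave -0.01.

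The genes lie in clusters on chromosomes 1, 6 and 12, split here wherever neighbouring histone genes are over 200 kb apart. The largest cluster, on chromosome 6 from H1-1 to H4C8, held 32 of the 62 members, among them all 8 genes lower at any fold. These 8 were 25% of its members, beside 13.5% of all genes lower at any fold, a share not computed for dim genes alone. In this cluster 1 gene was called lower (H4C2, or 3.12%, beside 2.14% of all genes), 0 were called higher, and the median was -0.05. The next cluster on the chromosome held H2BC11, H2AC11, H2BC12, H4C9 and H2AC12. There H2BC12 alone was called, H2AC12 differed by 0.00047, and the median of the 5 was -0.02. The cluster from H2BC13 to H2BC17 held 15 members with 0 called and a median of -0.03. On chromosome 1, H2BC18, H2BC21, H2AC20 and H2AC21 had a median of -0.05, and H3-4, H2AC25 and H2BC26 had 0.06, with 0 called. H4C16 on chromosome 12 gave -0.02, and the pair H2AC1 and H2BC1 gave -0.20 and -0.07.

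**Figure D4:**
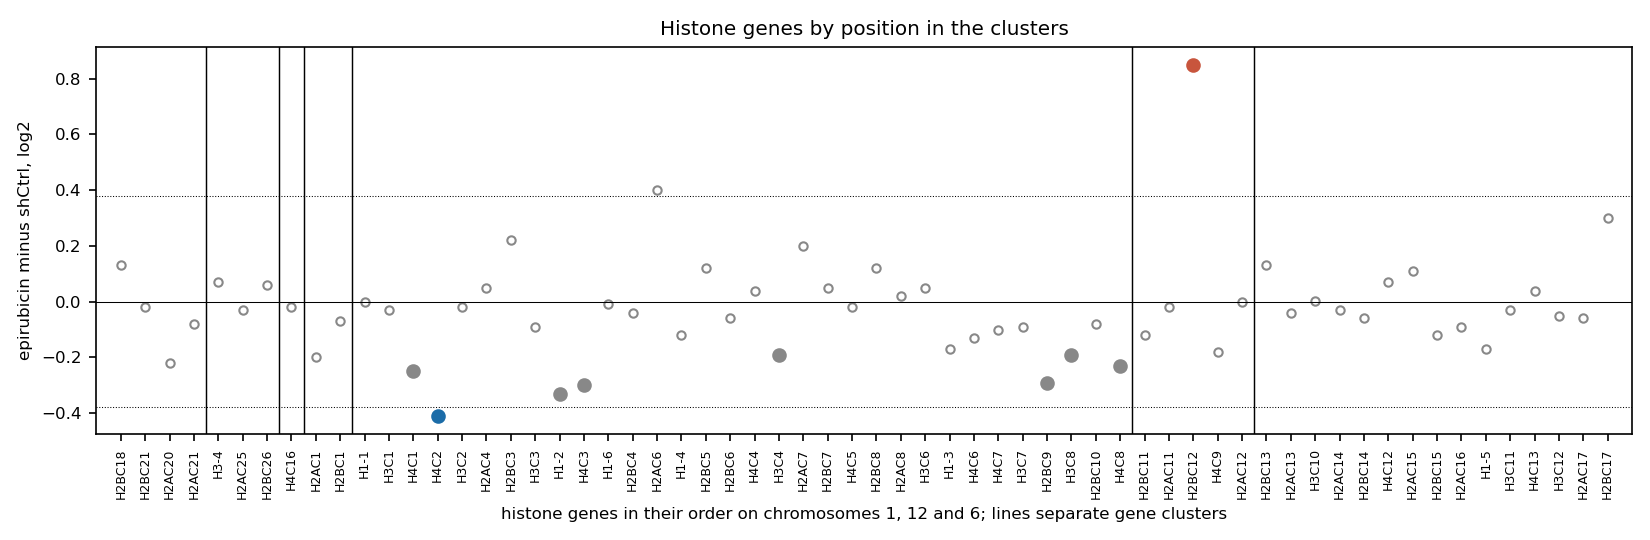
Difference between epirubicin and shCtrl on the log2 scale for the 62 genes in their order along chromosomes 1, 12 and 6; vertical lines separate clusters, filled points have an adjusted p under 0.05 in limma, red is called higher, blue called lower and grey not called, and dotted lines mark 1.3-fold. All 8 filled points below 0 lie in the cluster that holds 32 of the 62 genes, and H2BC12 at 0.85 stands alone in its cluster of 5.

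Many H2A and H2B genes stand head to head and share the sequence between their starts. Pairs were sought only among the 57 members with a matched promoter, with starts at most 400 bases apart. In 11 such pairs, with starts 194 to 248 bases apart, the 2 genes had differences of the same sign in 6, and 0 of the genes were called. H2BC12 was in none of the pairs found, but only 14 of the 15 H2A members had a matched promoter. A partner of H2BC12 may thus have been missed. H2AC6 (0.40) faces H2BC4 (-0.04), H2BC17 (0.30) faces H2AC17 (-0.06), and H2AC20 (-0.22) faces H2BC21 (-0.02).

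The genes around the histone messages were followed in lists given by role. Of 11 replacement and variant histones, most of which are made outside S phase from polyadenylated messages, 1 was called lower (9.09%) and 0 higher (median 0.06). Of all genes, 2.14% were called lower and 4.36% higher. CENPA, the H3 variant of centromeres, read 9.36, 9.28 and 9.28 and then 8.47, 8.37 and 8.36. It fell by 0.90 (SE 0.04, adjusted p = 5.26e-05 in limma), on 4 of 4 probe sets. The others lay between -0.12 (H2AX, the variant phosphorylated at DNA breaks) and 0.15 (H1-10). Of 8 genes of histone gene transcription, 0 were called and all 8 lay above 0 (median 0.07), with CASP8AP2 at 0.16 and NPAT, the activator bound by cyclin E-CDK2, at 0.04.

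Among the 14 genes of stem-loop 3′ end processing 0 were called, 13 lay below 0 and 8 were lower at any fold (57.1%, median -0.14). Of all genes, 13.5% were lower and 15.6% higher at any fold, and 7761 of 17534 lay below 0. This list was brighter, with 92.9% of its genes above the median of all values, beside 57.5% of all genes. The share at any fold among bright genes alone was not computed. SLBP, which binds the stem-loop, read 11.35, 11.41 and 11.40 and then 11.08, 11.09 and 11.08. All epirubicin arrays were lower, by -0.31 (SE 0.03, adjusted p = 0.000824 in limma), or 1.24-fold. The 13 genes of histone mRNA decay gave 0 calls and 6 lower at any fold (46.2%, median -0.13), with LSM6, a subunit of the LSM ring, at -0.34. The 16 genes of cleavage and polyadenylation gave 0 calls, 2 higher (12.5%) and 5 lower (31.2%) at any fold (median -0.11), with PABPN1, which coats new poly(A) tails, at 0.34. All genes of the decay and polyadenylation lists were above the median of all values.

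Of 21 histone chaperones 2 were called lower (9.52%) and 0 higher (median -0.06). All 21 were above the median of all values, and of all genes above it 3.33% were called lower and 6.29% higher. HIRA, which deposits the variant H3.3, read 9.85, 9.74 and 9.85 and then 9.14, 9.21 and 9.20, and fell by 0.63 (SE 0.04, adjusted p = 0.000171 in limma) on 2 of 2 probe sets. HJURP, the chaperone of CENPA, read 8.10, 8.15 and 8.10 and then 7.82, 7.67 and 7.72. It fell by 0.38 (SE 0.05, adjusted p = 0.00155 in limma), at the fold threshold, and was not called without the second shCtrl (-0.36), the second epirubicin (-0.35) or the third epirubicin array (-0.37). CHAF1A and CHAF1B of the replication-coupled chaperone CAF-1 gave 0.02 and 0.16.

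Of 22 DNA replication genes 2 were called higher (9.09%) and 0 lower (median 0.02): GINS4, a subunit of the replicative helicase, by 0.59 and PCNA, the sliding clamp, by 0.45. Of 16 G2 and mitosis genes 13 were called lower (81.2%) and 0 higher (median -0.76), among them CDC20 at -2.29 and CCNB1 at -1.79. Both lists lay wholly above the median of all values, and of all genes above it 6.29% were called higher and 3.33% lower.

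**Figure D5:**
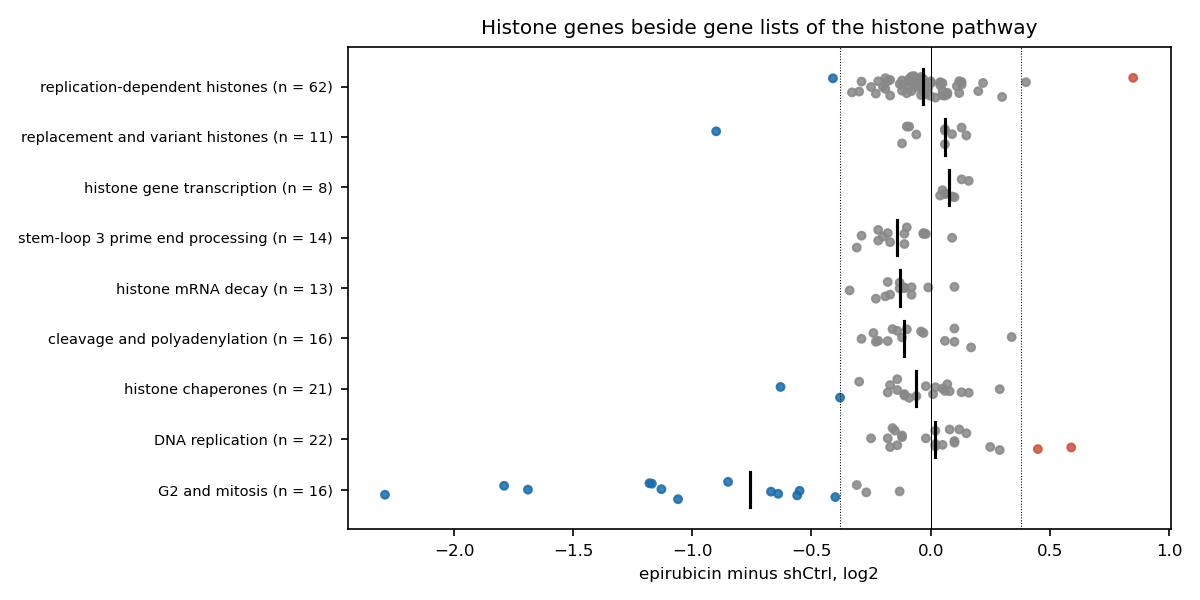
Difference between epirubicin and shCtrl on the log2 scale for the 62 histone genes and for the genes of 8 lists; each point is a gene, spread vertically at random within its row, black bars are medians, red is called higher, blue called lower and grey not called, and dotted lines mark 1.3-fold. The histone genes centre on -0.03, while the G2 and mitosis list centres on -0.76.

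The plasma cell label was checked with 8 markers, all above the median of all values, with a mean level of 11.24 to 11.25 on shCtrl arrays and 10.95 to 10.98 on epirubicin arrays. Of these, CD38 (-1.18) and IRF4 (-0.49) were called lower. Of the markers of other cells, 0 of 5 T and NK (mean level 5.06 to 5.13, then 5.18 to 5.28), 2 of 5 myeloid (4.05 to 4.09, then 4.97 to 5.04), 1 of 5 stromal (4.29 to 4.54, then 4.73 to 4.85) and 0 of 5 epithelial genes (4.01 to 4.05, then 4.03 to 4.11) were called higher and 0 lower. The myeloid pair was ITGAM (3.75, or 2.35 as the mean of its probe sets) and CD68 (0.63). The stromal gene was ACTA2 (1.55), called on 1 of 3 probe sets, at 0.58 as their mean, and not called when tested against a fold of 1.3 (adjusted p = 0.061 in limma). The part of these shifts in the histone values was not tested.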

How the data were processed

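Expression was read from the authors' deposited table of log2 values, with a value for each of 47481 probe sets on each of 6 arrays. The log2 scale was inferred from the deposited values (1.41 to 13.73). The submitters' processing notes name affy; how values were normalized and summarised is not given in the sources used here. A normalization between arrays would remove a change in total RNA. Array medians were 5.52 to 5.57. No scanner files, detection calls or scan dates were used here, so background and batches were not examined, and precision is limited by the array number.

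The platform annotation named the probe sets: 43976 have 1 symbol, 1558 several and 1947 none, and 43954 of the first matched RefSeq (GRCh38.p14) by Entrez number. Each of 17534 genes was read by its brightest probe set that names it alone. limma 3.58.1 in R 4.3.3 (lmFit, eBayes, no covariate) compared the groups, with Benjamini-Hochberg adjustment over all genes, or over all probe sets. Thresholds were an adjusted p of 0.05 and a fold of 1.3. SD, SE and 95% CI are on the log2 scale. The fit was also run on simulated data with independent normal values and added folds, which cannot show effects of arrays or of technical replicates.

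Members, lists, tests and alternatives were chosen with earlier results of these data known. Named are members called in either fit, the 2 largest differences each way per class among genes above 5.54, 7 preset genes (H2BC12, H2BC21, H2BC4, H2BC5, H2AC6, H1-2 and H4C2), called members of each list (at most 4 per list and direction) and probe sets of several histones; others were chosen after their values were seen, as examples or to complete a count. Of the listed genes, 2 were not analysed here. Alternatives changed the probe set rule, normalization, filter, variance model, thresholds, block and arrays.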

Additional observations from a re-analysis of the deposited data

How the results depend on the processing

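H2BC12 was called higher under every gene-level alternative run, at 0.41 to 0.90, the lowest being the mean of its probe sets. Histone genes called higher numbered 2 instead of 1 with the trend and robust variance model (H2AC6 added), with the replicate block (H2AC6 added, adjusted p = 0.0239 in limma) and when 1 called probe set sufficed (H2BC5 added). Histone genes called lower numbered 2 as means of probe sets, 0 with dim genes left out, 0 tested against 1.3-fold, 8 at any fold, 3 when 1 called probe set sufficed, and 0 to 2 leaving out each array in turn. With dim probe sets left out, 1 probe set was called higher and 0 lower.

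At any fold the lists gave 1 variant histone higher, 1 transcription gene higher, 8 processing genes lower, 6 decay genes lower, 2 cleavage and polyadenylation genes higher and 5 lower (0 to 1 higher leaving out each array), 3 chaperones higher and 5 lower, and 6 replication genes higher and 7 lower. Of all genes, 15.6% were higher and 13.5% lower at any fold. Chaperones called lower numbered 1 under quantile normalization and tested against 1.3-fold (1 to 2 leaving out each array), and replication genes called higher numbered 0 tested against 1.3-fold. With dim genes left out, 1 gene each remained for H1 (-0.33), H2A (-0.22), the first cluster on chromosome 1 (H2BC18 to H2AC21, -0.22) and the cluster of H2BC12 (0.85). These values are thus those of single genes and not medians of a class or cluster. For H2B and the 32-gene cluster 2 genes each remained, with medians of 0.37 and -0.31. No called gene changed direction. Medians near 0 changed sign for H2A (0.04 without the second shCtrl and 0.01 without the third epirubicin array), for H2B (-0.02 with quantile normalization, -0.01 with median centring and without the third epirubicin array) and for the cluster of H2BC12 (0.05 without the second shCtrl and 0.04 without the second epirubicin array, beside the 0.85 above).

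Same-numbered arrays did not deviate together (correlations -0.059, 0.000 and -0.007 over genes). These correlations showed no pairing by number but cannot exclude one, and the sample titles do not state it. Apart from H2AC6, the replicate block changed no histone gene call. The median over all genes moved by under 0.1 under any scaling. Only 6 histone genes lay above the median of all values, and the others were read from dim signals.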

Other observations

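Some genes of the lists had probe sets called lower while the brightest was not called, and these were picked after their values were seen. SRRT, a cap-complex partner in histone 3′ end processing, had 4 of 8 probe sets called lower, with the brightest at -0.29. ANP32E, a chaperone that removes H2A.Z, had 4 of 5 called lower, with the brightest at -0.30. PAPOLA, a poly(A) polymerase, had 3 of 10 called lower, with the brightest at -0.03. TYMS, of the replication list, went the other way, with 1 of 2 probe sets called higher and the brightest, not called, at 0.29. ASF1B, a chaperone of H3 and H4, had 0 of 3 probe sets called in either direction. Its brightest lay at 0.29 with an adjusted p of 0.00119 in limma, below the fold threshold.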
